A study of Mus musculus with 6 samples.

Results

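The gene for BiP, the HSP70 chaperone of the endoplasmic reticulum (ER), was followed together with those for GRP94, the HSP90 chaperone of the same compartment, and for the proteins that assist them. The 10 genes were chosen by name from the 40914 genes with counts in the table: *Hspa5* (BiP) and *Hsp90b1* (GRP94), the nucleotide exchange factors *Hyou1* and *Sil1*, the DnaJ proteins *Dnajb9*, *Dnajb11* and *Dnajc3*, the DnaJ partner *Sdf2l1*, and the secreted ER proteins *Manf* and *Creld2*. The values come from whole islets of wild-type (WT) mice and of heterozygous *Akita* mice at postnatal days 19 to 21. *Akita* mice carry, beside 1 normal *Ins2* allele, an *Ins2* allele in which a cysteine of proinsulin is replaced by tyrosine, so that a disulfide bond cannot form and the mutant proinsulin misfolds in the ER. The allele is in the germline, on a C57BL/6J background, and the study's methods state that male *Akita* mice were chosen. Each genotype had 3 libraries (WT1 to WT3, AK4 to AK6), each a pool of the islets of 3 mice, so that the spread between libraries is a spread between pools. Islets of both genotypes were released with collagenase P, picked by hand and kept overnight in RPMI-1640 medium with 11.1 mmol/l glucose and 10% serum before the RNA was extracted, and the values describe islets after that recovery.

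BiP binds unfolded stretches of new proteins that enter the ER, and its cycle of binding and release is driven by ATP. DnaJ proteins bring clients to BiP and start ATP hydrolysis, and exchange factors remove ADP so that the client is let go; GRP94 acts on a narrower set of clients, proinsulin among them. Proinsulin is by far the main client that a β-cell makes, and misfolded proinsulin triggers the unfolded protein response (UPR), in which the sensors ATF6, IRE1 and PERK raise transcription of ER chaperones and of the machinery that removes misfolded proteins, called ER-associated degradation (ERAD). ATF6 and XBP1, the factor made after IRE1 splices its mRNA, bind short promoter words, of which the ER stress response element (ERSE) is the best known.

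The promoters were read first, because the members are classical UPR targets and the words can be seen in the sequence itself. RefSeq promoters (GRCm38.p6, 250 bases before to 50 bases after the annotated start) were matched to 7 of the 10 members: *Hspa5*, *Hsp90b1*, *Dnajb9*, *Dnajb11*, *Dnajc3*, *Sdf2l1* and *Creld2*. 3 words were searched on both strands: ERSE, spelled CCAAT, then 9 bases of any kind, then CCACG; ERSE-II, spelled ATTGG, then 1 base, then CCACG; and a UPRE core, spelled TGACG followed directly by TGG. ERSE and ERSE-II share the CCACG end. The stretches that hold a word are shown 5′ to 3′ on the strand of the gene, with the fixed letters of each word in capitals; a word on the opposite strand reads CGTGG first and ATTGG last.
Hspa5, chr2:34771840-34772089, plus strand: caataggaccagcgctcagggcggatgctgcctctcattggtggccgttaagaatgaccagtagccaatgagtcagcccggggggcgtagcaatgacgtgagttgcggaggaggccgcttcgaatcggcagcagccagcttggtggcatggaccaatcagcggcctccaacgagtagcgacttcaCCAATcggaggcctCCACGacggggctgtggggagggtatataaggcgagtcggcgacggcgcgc
Creld2, chr15:88819396-88819645, plus strand: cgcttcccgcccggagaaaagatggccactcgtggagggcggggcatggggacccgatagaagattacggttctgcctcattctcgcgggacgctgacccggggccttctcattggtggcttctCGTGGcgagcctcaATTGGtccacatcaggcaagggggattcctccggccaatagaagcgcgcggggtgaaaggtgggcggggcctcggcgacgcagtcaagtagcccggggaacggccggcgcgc
Hsp90b1, chr10:86705514-86705676, minus strand: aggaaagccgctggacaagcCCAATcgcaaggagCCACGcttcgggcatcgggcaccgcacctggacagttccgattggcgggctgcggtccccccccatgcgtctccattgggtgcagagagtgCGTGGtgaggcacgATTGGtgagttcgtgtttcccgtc
Dnajc3, chr14:118937807-118937864, plus strand: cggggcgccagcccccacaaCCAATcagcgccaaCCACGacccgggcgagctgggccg
Dnajb11, chr16:22857843-22857871, plus strand: ccggcggcgATTGGcCCACGcctggctgc

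ERSE was present in 4 of the 7 member promoters, while it was present in 37 of 27025 genes with a promoter (0.137%). Counted with the first transcribed base as 0, the word spanned positions -65 to -47 in *Hspa5* and -105 to -87 in *Dnajc3*. *Hsp90b1* held it at -212 to -194 and again, on the opposite strand, at -107 to -89, and *Creld2* held it on the opposite strand at -126 to -108. *Dnajb11* held ERSE-II at positions 7 to 17, just inside the transcribed part; 0.0444% of all genes had that word. Neither *Dnajb9* nor *Sdf2l1* had ERSE or ERSE-II in this window, and no member promoter held the UPRE core, which 0.714% of all genes had. The end CCACG alone was in all 7 promoters and in 35.5% of all genes. In the table of the authors, *Hspa5* starts at base 34771970 of chromosome 2, upstream of the RefSeq start. Part of the stretch shown for *Hspa5*, with its ERSE at bases 34772025 to 34772043, therefore lies inside the gene in that annotation. *Hsp90b1* starts there at base 86705509 of chromosome 10, also upstream of its RefSeq start, and both of its ERSE copies lie upstream of that base as well. These matches describe letters in the reference genome, and binding was not measured. Because the members are classical UPR targets, such words were likely in them beforehand, and the shares carry no test.

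The libraries held 22069554 to 27043169 counts, and their scaling factors (TMM, trimmed mean of M-values) lay between 0.937 and 1.09. Levels are given as TMM-scaled CPM, the counts of a gene per 1e6 counts of its library. The labelled tissue matched its markers: 10 β-cell markers summed to 222478 to 246191 CPM in WT and to 132198 to 157109 CPM in *Akita* islets, with 4 of the 10 lower and 0 higher by limma-voom, and no marker on the list stood at 0. Most of these sums came from *Ins1* and *Ins2*, with means of 58973 and 133942 CPM in WT and 41980 and 76598 CPM in *Akita* islets. The mutated gene *Ins2* was among the markers called lower. Acinar markers varied with the library rather than the genotype, from 268 CPM in WT2 and 219 CPM in AK5 to 6755 CPM in WT3 and 7396 CPM in AK4, and no marker gene of any other cell type passed the test. Sums of the 3 PP-cell markers nevertheless lay at 3259 to 4109 CPM in WT and at 4472 to 6477 CPM in *Akita* islets, without overlap and with a median log2 fold change of 0.82. Those of the 7 α-cell markers lay at 26986 to 42045 and 38928 to 60829 CPM, with a median of 0.50. From these counts of whole islets alone, fewer β-cells and less of an mRNA per β-cell cannot be told apart. By counting cells at the same age, the study reported similar numbers of β-cells per islet area in both genotypes. It also reported a similar ratio of β-cells to α-cells. The part of the markers of β-cells and of the other endocrine cells in the values of the chaperones was not tested.

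In *Akita* islets, *Creld2* was the only one of the 10 members that passed the test over all genes, at 1.92-fold the WT level. All 10 members had a fitted log2 fold change above 0, with a median of 0.30 and a range from 0.075 (*Sil1*) to 0.94 (*Creld2*). Over all 15407 genes tested the median was -0.001 and 49.8% lay above 0. Of the members, 1 of 10 was called higher and 0 lower, where 0.759% of all genes tested were called higher and 0.857% lower (limma-voom, Benjamini–Hochberg adjusted p under 0.05). At an unadjusted p under 0.05, 5 of the 10 were higher (*Hspa5*, *Hyou1*, *Dnajc3*, *Sdf2l1* and *Creld2*), and 0 were lower, against 9.81% of all genes higher. In 6 of the 10 all *Akita* libraries lay above all WT libraries, against 13.2% of all genes. The members were chosen with earlier results of these data known, so these shares are a description and no independent test. The same libraries stood out in most members: AK6 was the highest of the 6 libraries in 9 of the 10 members, and AK5 was the lowest *Akita* library in 9 of the 10. The share of all genes with these orders was not counted. Without AK6 all 10 members kept a log2 fold change above 0, their median was 0.21, and no gene of all tested passed, the lowest adjusted p being 0.0589 (limma-voom). The calls depended on other libraries too. Genes called higher and lower numbered 1 and 0 without WT3, 2 and 5 without WT2, and 21 and 43 without WT1. They numbered 25 and 24 without AK5, and 344 and 240 without AK4.

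**Figure D1:**
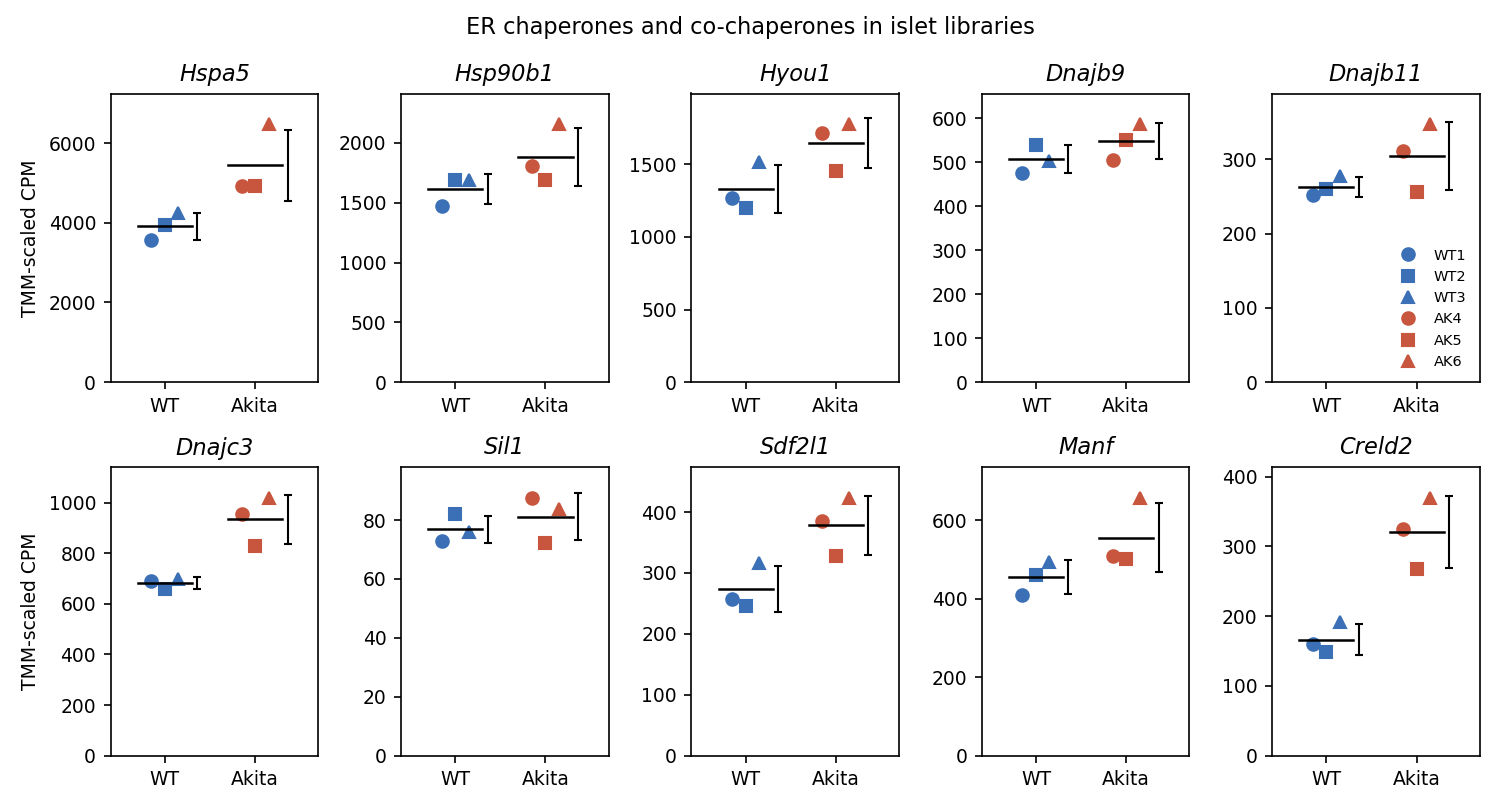
TMM-scaled CPM of each of the 10 members (vertical axes, linear and starting at 0) in the 3 WT and 3 *Akita* libraries; horizontal bars are group means and vertical bars are the SD. The *Akita* libraries lie above all WT libraries in *Hspa5*, *Hsp90b1*, *Dnajc3*, *Sdf2l1*, *Manf* and *Creld2*, and AK6 is the highest library in every panel but that of *Sil1*.

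Per length of transcript, the members spanned a wide range of levels in WT islets. *Hspa5* stood at 926 ± 80.5 RPKM (SD, n = 3 pools), that is, CPM divided by the exon length in kilobases, followed by *Hsp90b1* at 400.4 ± 30.8 RPKM, and *Sil1* was the lowest at 22.4 ± 1.37 RPKM. Between them, *Sdf2l1* had a mean of 246 RPKM, *Dnajb9* 199 RPKM, *Hyou1* 184 RPKM, *Dnajc3* 133 RPKM, *Manf* 129 RPKM, *Creld2* 122 RPKM and *Dnajb11* 81.3 RPKM. *Dnajb9* and *Hyou1* overlapped between libraries in WT, as did *Dnajc3*, *Manf* and *Creld2*, so their order is not resolved. In *Akita* islets the order began with the same genes, with *Hspa5* at 1286 RPKM, *Hsp90b1* at 467 RPKM and *Sdf2l1* at 342 RPKM, and *Sil1* was again the lowest at 23.6 RPKM. *Creld2* stood 8th in WT and 4th in *Akita* islets, at 235 ± 37.7 RPKM (SD, n = 3 pools), where its libraries overlapped with those of *Hyou1*, *Dnajb9* and *Dnajc3*. The lengths are those of all annotated exons of a gene joined together, so an isoform of other length would shift a gene in this order.

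Neither the mRNA of BiP nor that of GRP94 passed the test between the genotypes. From its own fit of these libraries, the study reported higher expression of *Hspa5*, *Dnajc3* and *Manf* in *Akita* islets. By Western blotting it also reported a marked increase of BiP protein. The counts used here do not measure protein. *Hspa5* (chr2:34771970-34777547, plus strand) had 3563, 3942 and 4242 CPM in WT1 to WT3 and 4934, 4916 and 6470 CPM in AK4 to AK6. The groups did not overlap, AK4 and AK5 lay close together, and AK6 stood above both. Its mean was 3916 ± 340.3 CPM in WT and 5440 ± 892 CPM in *Akita* islets (SD, n = 3 pools each), a log2 difference of 0.47 (SE 0.13, 95% confidence interval 0.16 to 0.77), short of the threshold (limma-voom, adjusted p = 0.128). Leaving out one library at a time moved this change between 0.33, without AK6, and 0.53. Scaled by library totals alone it was 0.59 and passed (limma-voom, adjusted p = 0.0412), but that scaling also moved the median of all genes from -0.001 to 0.118.

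*Hsp90b1* (chr10:86690209-86705509, minus strand) had 1471, 1686 and 1686 CPM in WT and 1807, 1687 and 2154 CPM in *Akita* islets. The groups met, with AK5 just above WT2 and WT3. Its log2 fold change was 0.22 (SE 0.11, 95% confidence interval -0.048 to 0.48) and did not pass (limma-voom, adjusted p = 0.355), and it was 0.12 without AK6. Exons of *1810014B01Rik*, on the other strand, cover 10.3% of its exon bases, and as the kit does not mark strand their reads cannot be told apart there.

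The mRNA of neither exchange factor passed the test. *Hyou1* (chr9:44379490-44392369, plus strand) encodes GRP170, a large HSP70 relative that both opens the nucleotide site of BiP and holds unfolded proteins itself. It had 1270, 1199 and 1513 CPM in WT and 1712, 1450 and 1774 CPM in *Akita* islets. AK5 lay below WT3, so the groups overlapped by 1 library. The log2 fold change was 0.31 (SE 0.12, 95% confidence interval 0.029 to 0.59; limma-voom, adjusted p = 0.234). *Sil1* (chr18:35266400-35498925, minus strand), the other exchange factor, had 72.7, 82.0 and 75.8 CPM in WT and 87.5, 72.1 and 83.8 CPM in *Akita* islets. AK5 was the lowest and AK4 the highest of all libraries, so that the genotypes were mixed, and the log2 fold change of 0.075 (SE 0.096) had a 95% confidence interval of -0.15 to 0.30 (limma-voom, adjusted p = 0.727). It lay between 0.023 and 0.16 with a library left out, the ends being those without AK4 and without AK5. Antisense transcripts cover 3.14% and 2.56% of the exon bases of *Sil1*.

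None of the mRNAs of the 3 DnaJ proteins passed the test, *Dnajc3* coming nearest to the threshold. *Dnajc3* (chr14:118937932-118981702, plus strand) encodes P58IPK, a lumenal DnaJ protein whose loss causes β-cell failure in mice. It had 692, 657 and 699 CPM in WT and 956, 829 and 1019 CPM in *Akita* islets. The WT libraries lay close together and every *Akita* library was above them. Its log2 fold change was 0.45 (SE 0.091, 95% confidence interval 0.23 to 0.66), with an adjusted p of 0.0662 in limma-voom, the lowest of the members that did not pass. It passed with library totals alone (limma-voom, adjusted p = 0.0335), with no filter on low counts (0.0487), with quality weights for libraries (0.0376) and with an acinar score as covariate (0.0499), and it did not pass with any of the libraries left out.

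*Dnajb9* (chr12:44205897-44210068, minus strand) encodes ERdj4, which delivers misfolded proteins to ERAD and restrains IRE1 together with BiP. Its values were 477, 541 and 503 CPM in WT and 505, 552 and 586 CPM in *Akita* islets. AK4 lay below WT2, and the log2 fold change was 0.11 (SE 0.085, 95% confidence interval -0.089 to 0.31; limma-voom, adjusted p = 0.533), or 0.062 without AK6, 0.068 without WT1 and 0.17 without AK4. *Dnajb11* (chr16:22857845-22879634, plus strand) encodes ERdj3, which binds new chains directly and hands them to BiP. Its values were 251, 260 and 278 CPM in WT and 311, 256 and 347 CPM in *Akita* islets. AK5 fell among the WT libraries while AK4 and AK6 were above them, and the log2 fold change was 0.20 (SE 0.12, 95% confidence interval -0.076 to 0.48; limma-voom, adjusted p = 0.411), or 0.10 without AK6 and 0.32 without AK5.

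*Sdf2l1* (chr16:17130138-17132383, minus strand) encodes a small lumenal protein that forms a complex with ERdj3 and keeps bound clients from aggregating. It had 257, 246 and 316 CPM in WT and 385, 327 and 423 CPM in *Akita* islets. The groups did not overlap, although AK5 was only a little above WT3. Its log2 fold change was 0.47 (SE 0.13, 95% confidence interval 0.16 to 0.78), of the size of that of *Hspa5*, and did not pass (limma-voom, adjusted p = 0.125).

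Of the secreted ER proteins, *Creld2* passed the test and *Manf* did not. *Manf* (chr9:106838312-106891979, minus strand) encodes a protein that binds BiP in the ER, is released when ER calcium falls, and is needed for β-cell mass in mice. It had 409, 460 and 494 CPM in WT and 509, 501 and 657 CPM in *Akita* islets. All *Akita* libraries were above all WT libraries, AK4 and AK5 by a small margin over WT3. The log2 fold change was 0.28 (SE 0.13, 95% confidence interval -0.016 to 0.58; limma-voom, adjusted p = 0.291), and it was 0.16 without AK6. Exons of *Dcaf1* and of *4930524O07Rik*, both on the other strand, cover 4.14% and 4.71% of its exon bases.

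*Creld2* (chr15:88819646-88826681, plus strand) encodes an ER protein with EGF-like repeats that is retained in the ER and partly secreted under ER stress. It had 159, 148 and 192 CPM in WT and 325, 267 and 370 CPM in *Akita* islets. The lowest *Akita* library lay well above the highest WT library. *Creld2* rose from 167 ± 22.4 CPM in WT to 320 ± 51.5 CPM in *Akita* islets (SD, n = 3 pools each), a log2 difference of 0.94 (SE 0.14) or 1.92-fold (95% confidence interval 1.52 to 2.43), and passed (limma-voom, adjusted p = 0.0359). Of the 15407 genes tested, 2.41% had a larger log2 fold change. The call was kept without AK4 (limma-voom, adjusted p = 0.0438) and lost without each of the other libraries, with an adjusted p of 0.0940 without WT1, 0.155 without WT2, 0.0924 without WT3, 0.0537 without AK5 and 0.122 without AK6. The change itself stayed between 0.83 and 1.07 in those fits.

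**Figure D2:**
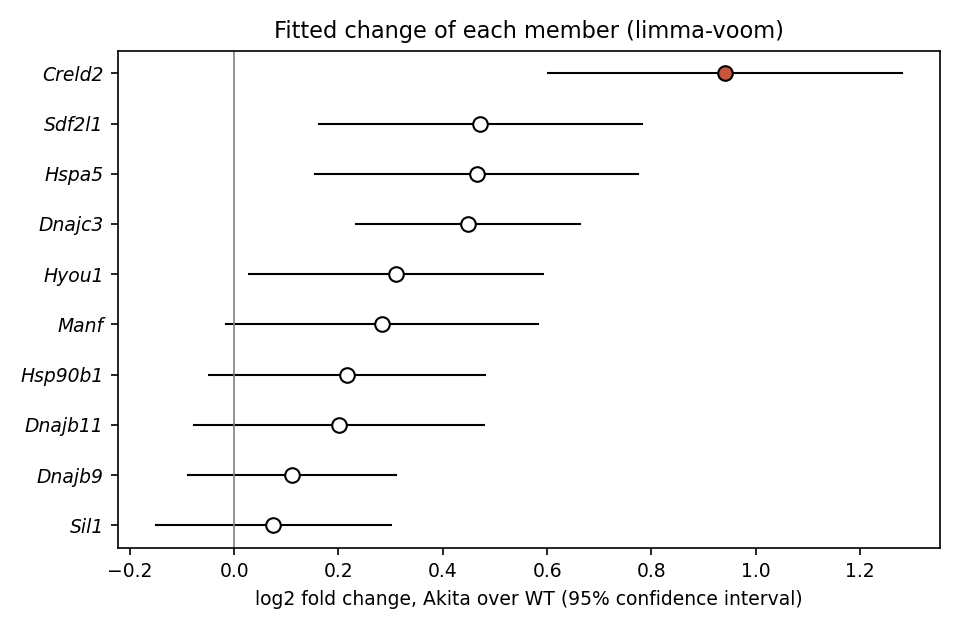
Log2 fold change of *Akita* over WT islets from limma-voom for each member (points) with its 95% confidence interval (lines); the filled point marks an adjusted p under 0.05. *Creld2* lies apart at 0.94, *Sdf2l1*, *Hspa5* and *Dnajc3* lie between 0.45 and 0.47, and the intervals of *Manf*, *Hsp90b1*, *Dnajb11*, *Dnajb9* and *Sil1* include 0.

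Set against the promoters shown above, the members with ERSE covered the range of changes: *Creld2* at 0.94, *Hspa5* at 0.47, *Dnajc3* at 0.45 and *Hsp90b1*, with both copies, at 0.22. *Dnajb11*, with ERSE-II, had 0.20. Of the members with neither word in the window, *Sdf2l1* had 0.47 and *Dnajb9* 0.11. These are log2 fold changes of too few genes for a test, and they are given as a description.

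The chaperones were next set against insulin, whose precursor is their main client in the β-cell. Ratios of counts within a library do not depend on the scaling. *Ins2* was lower in *Akita* islets, with a log2 difference of -0.81 (SE 0.12; limma-voom, adjusted p = 0.0332), and that of *Ins1* was -0.49 (SE 0.091; same test, adjusted p = 0.0573). The call of *Ins2* was kept without AK4 and lost without each of the other libraries. Together both genes took 17.6% to 19.2% of all counts in WT and 11.8% to 12.6% in *Akita* islets. The 10 members took 0.852% to 0.936% of all counts in WT and 1.11% to 1.40% in *Akita* islets, with no overlap.

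Per 1000 insulin counts, *Hspa5* had 18.9, 21.3 and 20.7 counts in WT1 to WT3 and 45.6, 40.0 and 51.9 counts in AK4 to AK6. Every *Akita* library stood well above every WT library, with means of 20.3 ± 1.25 and 45.8 ± 5.94 (SD, n = 3 pools each), a 2.25-fold difference that reached p = 0.1 in an exact two-sided permutation test, the smallest p that 3 libraries against 3 can give. The sum of the 10 members had 45.7, 49.9 and 48.7 counts per 1000 insulin counts in WT and 107, 88.3 and 111 in *Akita* islets, a 2.11-fold difference with the same p = 0.1 in the exact permutation test. Both the lower insulin counts and the higher chaperone counts enter these ratios. *Ins1* and *Ins2* were each lower, and *Hspa5* and the summed members higher, in every *Akita* library than in every WT library. Both ratios were thus bound to separate the genotypes, so their permutation p was fixed. Insulin as a share of all counts differed by -0.58 on the log2 scale. A gene with an unchanged share would therefore also be higher per insulin count. The share of all genes tested whose ratio to insulin separates the genotypes was not counted. With *Ins1* alone as denominator the log2 differences were 0.96 in place of 1.17 for *Hspa5* and 0.87 in place of 1.08 for the sum.

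**Figure D3:**
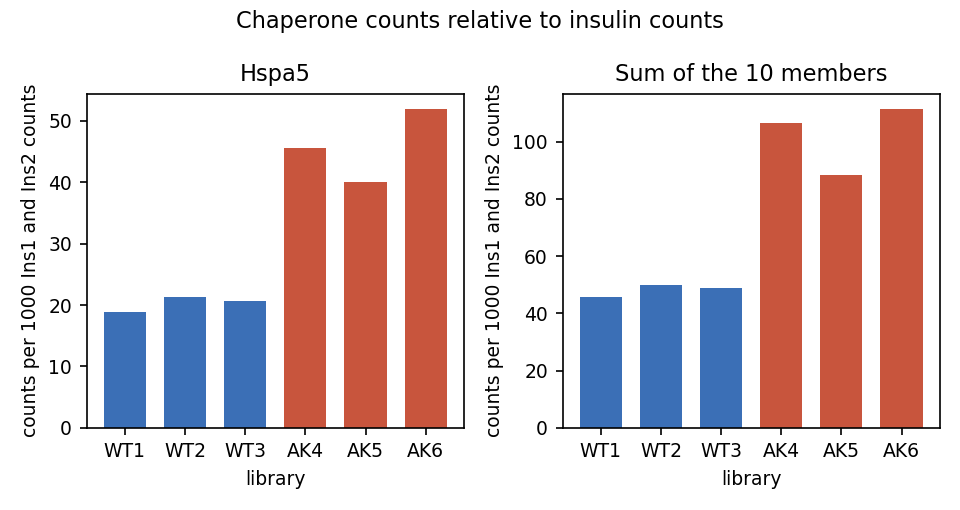
Counts of *Hspa5* (left) and summed counts of the 10 members (right) per 1000 counts of *Ins1* and *Ins2* in each library; bars start at 0, blue bars are WT and red bars *Akita*. The WT bars lie at 18.9 to 21.3 for *Hspa5* and the *Akita* bars at 40.0 to 51.9.

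The division of the counts among the members was compared within each library. *Hspa5* made up 41.3%, 42.7% and 42.4% of the member counts in WT and 42.8%, 45.3% and 46.6% in *Akita* islets, without overlap although AK4 was next to WT2 (exact permutation test, p = 0.1). Per 100 *Hspa5* counts, *Manf* had 11.5, 11.7 and 11.7 counts in WT and 10.3, 10.2 and 10.2 in *Akita* islets. This was the tightest ratio within the genotypes, with SDs of 0.109 and 0.0896 counts. *Creld2* was the only member that was higher relative to *Hspa5* in every *Akita* library than in every WT library, with 4.48, 3.77 and 4.52 counts per 100 *Hspa5* counts in WT and 6.59, 5.43 and 5.71 in *Akita* islets.

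*Hsp90b1* had 41.3, 42.8 and 39.7 counts per 100 *Hspa5* counts in WT and 36.6, 34.3 and 33.3 in *Akita* islets, so that GRP94 mRNA was lower relative to BiP mRNA in every *Akita* library. *Dnajb9*, *Dnajb11* and *Sil1* were likewise lower relative to *Hspa5* without overlap, *Dnajb9* with 11.9 to 13.7 counts in WT and 9.06 to 11.2 in *Akita* islets. For these 6 ratios the exact permutation test gave p = 0.1, the smallest possible, and 0.15 after Benjamini–Hochberg adjustment over the 9 ratios. *Hspa5* itself was higher in every *Akita* library, so a gene whose level did not change would also be lower in such a ratio. The share of all genes tested whose ratio to *Hspa5* separates the genotypes was not counted. The ratios of *Dnajc3* and *Sdf2l1* to *Hspa5* overlapped between the genotypes, with means of 17.5 and 17.3 for *Dnajc3* in WT and *Akita* islets, and with 6.24 to 7.46 counts in WT and 6.54 to 7.80 in *Akita* islets for *Sdf2l1* (exact permutation tests, p = 0.9 and p = 1). *Hyou1* had a mean of 33.9 in WT and 30.5 in *Akita* islets and overlapped too (exact permutation test, p = 0.2).

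**Figure D4:**
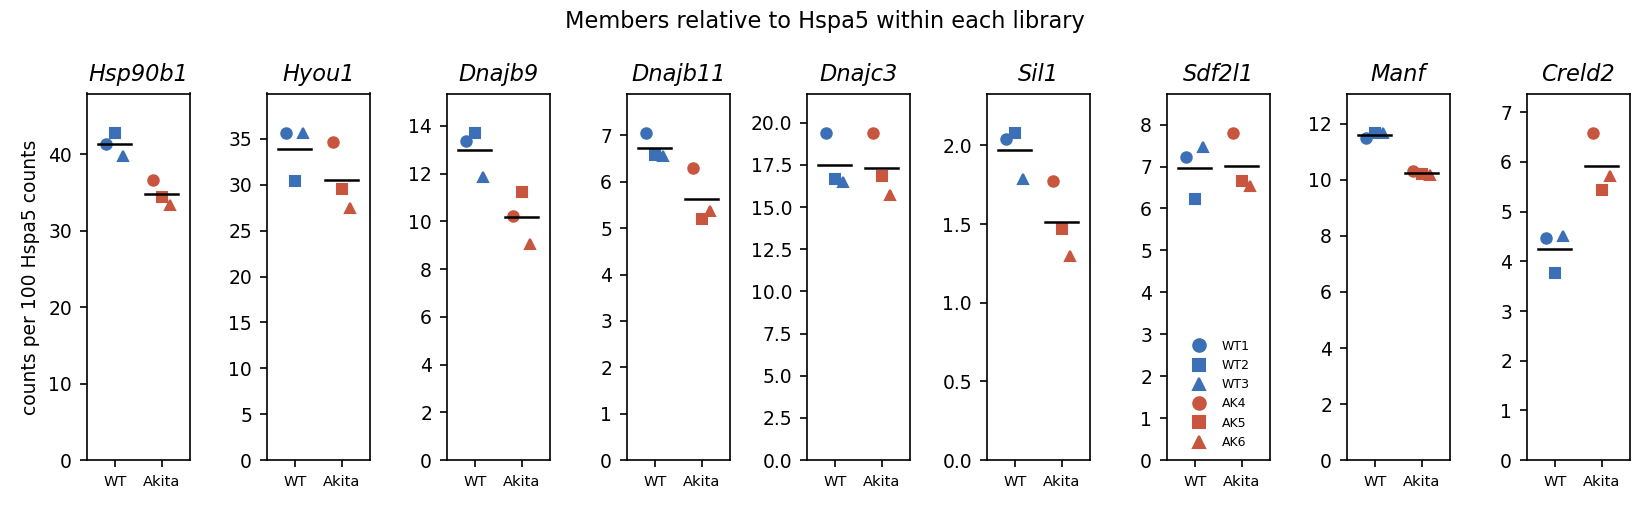
Counts of each other member per 100 *Hspa5* counts in every library (vertical axes, linear and starting at 0), with horizontal bars at the group means. *Hsp90b1*, *Dnajb9*, *Dnajb11*, *Sil1* and *Manf* are lower and *Creld2* is higher in all *Akita* libraries, and the 3 *Manf* values of each genotype nearly coincide.

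Over the 6 libraries, *Manf* was the member whose log2 CPM followed *Hspa5* most closely (Pearson's r = 0.97, Spearman's rho = 1) and *Sil1* the one that did so least (r = 0.47). The others had r between 0.78, for *Dnajb9*, and 0.94, for *Hsp90b1*. Outside the members, the named genes most like *Hspa5* were *Kcnab3* (r = 0.993), a subunit of potassium channels, *Slc24a3* (0.989), a sodium/potassium/calcium exchanger, *Ppp2r5c* (0.988), a regulatory subunit of protein phosphatase 2A, *Xxylt1* (0.987), a xylosyltransferase of the ER, and *Parn* (0.986), a poly(A) ribonuclease. None of these passed the test between the genotypes, and 256 of 13634 genes ranked had an r over 0.9 with *Hspa5*. With 6 libraries of only 2 genotypes that share their scaling factors, these coefficients describe the order of the libraries and carry no test.

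The members were compared with 6 lists of 85 related genes, of which 84 were tested; 5 of them were higher and 0 lower. The closest relatives, 13 other ER DnaJ proteins and HSP70 partners, had a median log2 fold change of 0.097, and none passed (limma-voom; 2 above and 1 below 0 had an unadjusted p under 0.05). *Creld1*, the paralog of *Creld2*, had 31.3, 28.1 and 32.8 CPM in WT and 42.2, 40.0 and 41.5 CPM in *Akita* islets, a log2 difference of 0.43 (SE 0.085; limma-voom, adjusted p = 0.0628), and *Dnajc10*, an ER reductase with a DnaJ domain, had one of -0.28 (SE 0.062; same test, adjusted p = 0.0819). Of the 13 genes, 9 had a fitted change above 0 and 4 below 0, and no direction was resolved at the threshold.

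The counterparts of the members in cytosol and mitochondria had a median of -0.087 with 14 of 20 below 0, and none passed (limma-voom). At an unadjusted p under 0.05 none of the 20 was higher and 3 were lower, where 8.88% of all genes tested were lower. *Hspa4*, a cytosolic exchange factor of HSP70, had a log2 difference of -0.26 (SE 0.072; limma-voom, adjusted p = 0.122), and *Hspa2*, an HSP70 best known from the testis, had 0.26 (SE 0.13; same test, adjusted p = 0.332). Of the disulfide and lectin folding factors, 17 of 18 were tested and none passed, with a median of 0.033 (limma-voom; 2 above and 2 below 0 had an unadjusted p under 0.05). In this list *Pdia4*, a disulfide isomerase, had 410, 399 and 468 CPM in WT and 623, 518 and 638 CPM in *Akita* islets, a log2 difference of 0.48 (SE 0.11; limma-voom, adjusted p = 0.0805). *Ero1lb*, the oxidase that serves proinsulin folding in β-cells, had 1168, 1336 and 1377 CPM in WT and 981, 785 and 822 CPM in *Akita* islets, a log2 difference of -0.59 (SE 0.11; limma-voom, adjusted p = 0.0581). Its groups did not overlap, and its direction was opposite to that of the members.

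ERAD held most of the called genes, with 3 of 15 higher, 0 lower and a median of 0.15. At an unadjusted p under 0.05, 7 of the 15 were higher and 0 lower (limma-voom). In 7 of them all *Akita* libraries lay above all WT libraries. *Derl3*, a derlin that draws misfolded proteins out of the ER, had 34.1, 29.2 and 42.0 CPM in WT and 159, 122 and 175 CPM in *Akita* islets. It rose by 2.12 on the log2 scale (SE 0.18; limma-voom, adjusted p = 0.0121), more than any member. *Herpud1*, a scaffold of the ERAD ligase HRD1, rose by 0.92 (SE 0.083), and *Sel1l*, the partner of that ligase, by 0.89 (SE 0.090), about as much as *Creld2*. *Edem1*, a lectin that targets glycoproteins for degradation, had -0.21 (SE 0.16; limma-voom, adjusted p = 0.520). Of the UPR sensors and transcription factors, 1 of 16 was higher: *Creb3l1*, a membrane-bound relative of ATF6, rose by 0.91 (SE 0.12; limma-voom, adjusted p = 0.0264). At an unadjusted p under 0.05, 6 of the 16 were higher and 2 lower (same test). All *Akita* libraries lay above all WT libraries in 7 of the 16 and below them in 2. The lowest adjusted p below 0 was that of *Atf6b*, an ATF6 paralog, at -0.34 (SE 0.12; limma-voom, adjusted p = 0.185). Of the 3 receptors that return proteins with a KDEL-type tail, such as BiP and GRP94, from the Golgi, *Kdelr3* rose by 1.38 (SE 0.13; limma-voom, adjusted p = 0.0121), from 33.4, 27.5 and 35.4 CPM to 74.8, 81.6 and 94.0 CPM, and the other two did not pass. The calls of *Derl3*, *Herpud1*, *Sel1l* and *Kdelr3* were lost without WT2, WT3 or AK6, and that of *Creb3l1* without each library but AK4. The mRNAs of *Atf6* and *Xbp1*, named here after their values were seen because their products bind the words above, had log2 fold changes of 0.11 (SE 0.066; limma-voom, adjusted p = 0.423) and -0.17 (SE 0.067; same test, adjusted p = 0.236). These counts are of total mRNA, and the activity of the factors was not measured by them. The study reported lower total *Xbp1* mRNA with only a modest increase in its splicing, both also quantified by qPCR.

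**Figure D5:**
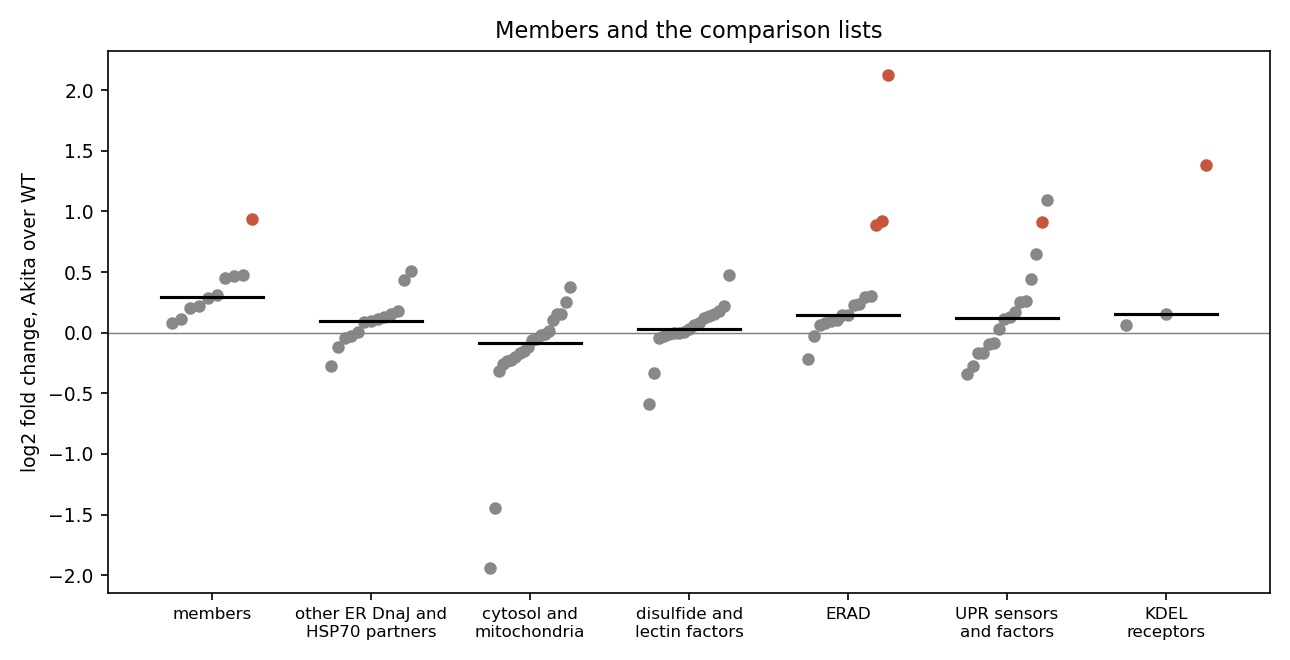
Log2 fold change of *Akita* over WT islets (limma-voom) of the members and of the 84 tested genes of the 6 comparison lists; red points have an adjusted p under 0.05 and horizontal lines are medians. The median is 0.30 for the members and lies between -0.087 and 0.15 for the other lists, in which *Derl3*, *Kdelr3*, *Herpud1*, *Sel1l* and *Creb3l1* are the red points.

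All genes of the lists with one of the words are named here, whatever their change. In the promoters of the comparison genes, ERSE was found in *Pdia6*, *Calr* and *Canx* of 14 matched disulfide and lectin factors and in *Syvn1* and *Derl3* of 10 matched ERAD genes. ERSE-II was found in *Herpud1*, and the UPRE core in *Dnajc25*, *Txndc5*, *Txndc11*, *Ube2j1* and *Kdelr3*. None of the 16 matched counterparts in cytosol and mitochondria held any of the words. *Calr* and *Canx*, both with ERSE and chosen after their values were seen, had log2 fold changes of -0.002 and -0.001 (limma-voom, adjusted p = 0.993 and 0.995), so that genes with this word stood at 0 as well as at 2.12.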

How the data were processed

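Whole-islet RNA (120 ng per library) was made into TruSeq RNA V2 libraries, sequenced as single reads. The authors used cutadapt 1.12 for trimming, STAR 2.5.2b for alignment to GRCm38 and HTSeq 0.7.2 for counting. Which annotation release and strand setting they took is not given in the sources used here. One table of 47729 genes was deposited, with raw whole-number counts for 40914 and a mark in place of counts for 6815. Because of these marks the deposited count columns were treated as another kind of value, and limma-voom replaced the count models. Columns were matched to the genotype only. The authors' 6 columns of normalized counts, and their fold changes and p-values from DESeq2 1.12.4, were not used.

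A gene was tested when 3 or more libraries had a CPM worth 10 counts in a library of median size and all libraries together had 15 counts, which left 15407 genes. R 4.3.3 and limma 3.58.1 were used, with TMM factors (30% of log ratios and 5% of levels trimmed), a pseudocount of 0.5, no covariate and Benjamini–Hochberg adjustment over all genes tested. Exon lengths and overlaps came from GENCODE annotation of GRCm38, promoters from RefSeq (GRCm38.p6), read with Python 3.11.15. Ratios were compared by exact permutation over libraries. The fit was tested on simulated data. No library repeated another, the chi-square of any pair being at least 20.8 per degree of freedom. The genes named are the members, the insulin genes, the called genes and the lowest adjusted p in each direction of each list, and the 5 named genes most correlated with *Hspa5*; genes of the lists with a promoter word are named too, and 4 genes (*Atf6*, *Xbp1*, *Calr*, *Canx*) were given values outside this rule, after those values were seen. The members and lists were chosen with earlier results of these data known. Other scalings, filters, models, thresholds and each library left out were tried. With a library left out the filter asked for 2 or more libraries in place of 3, and 15649 to 15903 genes were tested. Nothing says that pools were separate litters, and p-values measure the spread between these pools.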

Additional observations from a re-analysis of the deposited data

How the results depend on the processing

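All 10 members had a log2 fold change above 0 in each of the 17 fits across genes, with other scaling factors, filters, models, a covariate or a library left out. The number of members called higher was 1; it was 3 with library totals alone, 2 with no filter, 2 with library quality weights, 2 with the acinar score as covariate and 2 at a threshold of 0.10, and 0 to 1 with a library left out. Genes of the comparison lists called higher numbered 5, or 8 with library totals alone, 6 with quality weights, 6 with the acinar covariate, 7 at a threshold of 0.10 and 0 to 5 with a library left out; those called lower numbered 0, or 1 with no filter, 1 with quality weights, 2 at a threshold of 0.10 and 0 to 1 with a library left out. Of all genes tested, 117 were higher, or 452 with library totals alone, 272 with quality weights, 369 at a threshold of 0.10 and 0 to 344 with a library left out. Those lower numbered 132, or 249 with quality weights, 375 at a threshold of 0.10 and 0 to 240 with a library left out. With library totals alone the split of all calls moved from 117 higher and 132 lower to 452 higher and 119 lower. Against *Ins1* alone the log2 difference was 0.957 for *Hspa5* and 0.868 for the sum of the members. The cause of these shifts was not tested. edgeR and DESeq2 were not run, a choice made when the marks were found, although the genes kept have whole-number counts. No paired analysis was possible because the *Akita* columns are numbered 4 to 6, so that they could not be matched to the replicate numbers 1 to 3 that the sample labels give both genotypes. The weakest member, *Sil1*, had a mean of 76.8 CPM in WT islets, and the effect of depth on the calls was not tested; with 3 pools a group, the exact test of a ratio cannot pass.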
